A study of Mus musculus with 8 samples.

Results

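The genes described here encode the initiation factors (eIF1 to eIF6) and the elongation factors (eEF1 and eEF2) of cytosolic translation in mouse ventral pallidum (VP). They were chosen by name, as the protein-coding genes whose symbol begins with Eif1 to Eif6, Eef1 or Eef2, which also takes in kinases, methyltransferases and binding proteins named after the factors. The rule found 64 of the 14353 genes in the deposited table: 5 named for eIF1, 15 for eIF2, 14 for eIF3, 14 for eIF4, 4 for eIF5, 1 for eIF6 and 11 for eEF. All but Eif4ebp1 passed a filter of more than 1 CPM (counts scaled to a library's total, with TMM size factors) in at least 3 libraries, so 63 were tested. Eif4ebp1, a repressor of the cap-binding protein, averaged 0.853 CPM in TRAP and 1.29 CPM in INPUT and was not tested.

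Initiation begins when eIF2, carrying the initiator methionyl-tRNA, joins eIF1, eIF1A, eIF3 and eIF5 on the small ribosomal subunit. The eIF4F complex, made of the cap-binding eIF4E, the scaffold eIF4G and the helicase eIF4A, brings that assembly to the capped end of the mRNA, and eIF5B then helps the large subunit to join. During elongation, eEF1A delivers each aminoacyl-tRNA, the eEF1B subunits recharge eEF1A with GTP, and eEF2 moves the ribosome along. In neurons these steps are studied for their part in synaptic plasticity, and eEF1A2 is known as the eEF1A form of adult neurons and muscle.

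RNA was sequenced from the VP of untreated VGluT2-Cre x Rpl22 mice, homozygous for the Cre and heterozygous for Rpl22, a genotype shared by every library. The tag on Rpl22, a protein of the large ribosomal subunit, appears in cells in which the vGluT2 gene has driven Cre, so the TRAP libraries hold ribosome-bound mRNA pulled down from such cells, labelled as glutamatergic neurons. INPUT is labelled as RNA of all neurons and glia. The methods, in their account of sequencing, speak of unbound RNA instead. Each of 4 pools gave 1 TRAP and 1 INPUT library (n = 4 a fraction). Pool VP1.6 held tissue of 3 male and 4 female mice aged 9 to 12 weeks. The pools numbered VP2 held 4 males each, with 6 females in VP2.2 and in VP2.11 and 7 in VP2.6, all aged 10 to 16 weeks. The study's methods give other numbers of samples and mice, and the 4 pools of the labels were analysed. Levels are log2 CPM as deposited, and values of libraries are given in a fixed order of pools, with VP1.6 first, then VP2.2, then VP2.6, and VP2.11 last. Effective depth, read from steps of whole reads in low genes, was 12.5 M reads in TRAP and 37.7 M in INPUT for VP2.2, and 12.5 M and 24.9 M for VP2.6. Depth is unknown for the other pools. All coordinates are GRCm38.

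Slc17a6, which encodes vGluT2, averaged 143 ± 13.6 CPM in TRAP and 25.9 ± 10.3 CPM in INPUT (SD, n = 4) and was higher in TRAP in all 4 pools. Of 5 markers of neurons in general, 4 were higher in TRAP (Snap25, Stmn2, Syt1 and Tubb3), 2 without VP1.6, 5 without VP2.2, 2 without VP2.6 and 3 without VP2.11. Led by Snap25, they summed to 19000 to 27500 CPM in TRAP and 5480 to 10600 CPM in INPUT. Most markers of other cells were lower in TRAP, and none was at 0. Of the markers of GABA neurons, Slc32a1 was lower (log2 -1.26, a call lost without VP1.6), while Gad1 and Gad2 had differences of 0.30 and -0.05 that did not pass the threshold and were higher in TRAP in VP2.2 only. The 5 spiny neuron markers of striatum, all lower, summed to 292 to 478 CPM in TRAP and 796 to 1230 CPM in INPUT, with Penk the most abundant in TRAP. Of 5 oligodendrocyte markers, 4 were lower. Among them, Mbp averaged 335 ± 68.4 CPM in TRAP and 1590 ± 477 CPM in INPUT, and Sox10 8.50 ± 2.39 and 25.5 ± 7.08 CPM (SD, n = 4), both lower in 4 of 4 pools. Mag had a difference of 0.61 (adjusted p = 0.072). It passed the threshold as a rise in a fit without pools as blocks (adjusted p = 0.035) and in one corrected for exon length (log2 0.64, adjusted p = 0.043). The 5 astrocyte markers, 4 lower, summed to 150 to 253 CPM against 343 to 502 CPM, led by Slc1a3, and the 5 microglial markers, 3 lower, to 23.7 to 31.8 CPM against 78.8 to 126 CPM, led by Csf1r. Of 3 endothelial markers tested, Flt1 was higher in TRAP, at 8.90 ± 8.0 against 1.56 ± 0.784 CPM. The part of these cell types in the differences below was not tested. In such bulk samples, fewer cells of a type and less RNA per cell cannot be told apart.

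The pools did not all resemble each other, and VP1.6 and VP2.6 were the closest pair. Across the 63 genes, the TRAP minus INPUT differences of VP1.6 and VP2.6 had a Pearson correlation of 0.894, and those of VP2.2 correlated at 0.561 with VP1.6, at 0.470 with VP2.6 and at 0.610 with VP2.11. VP2.11 correlated at 0.626 with VP1.6 and at 0.704 with VP2.6. These values describe genes measured in the same libraries and carry no p. Of single libraries, TRAP of VP2.11 was the least like the rest of its fraction over all genes (r = 0.939, others 0.972 to 0.990). INPUT of VP2.2 held 68300 CPM over 76 cytosolic ribosomal protein genes, against 32500 to 37100 CPM in the other INPUT libraries. Calls of translation factor genes that depend on 1 pool are named below.

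Translation factor genes as a whole were called about as often as other genes. With pools as blocks in the fit, 12 of the 63 genes (19.0%) were higher in TRAP, where 15.4% of all 14249 genes tested were higher. A further 7 genes (11.1%) were lower in TRAP, beside 16.8% of all genes. The median log2 fold change was -0.04 over the 63 genes and -0.05 over all genes. Without the block the counts were 15 higher and 13 lower (23.8% and 20.6%), beside 23.2% and 24.8% of all genes. All 19 genes called with the block were also called without it. The count of rises rested in part on single pools. It was 6 genes without VP1.6, 15 without VP2.2, 5 without VP2.6 and 8 without VP2.11, where 10.9%, 14.9%, 10.7% and 13.1% of all genes were higher. The count of falls was 6, 8, 6 and 6 genes, beside 11.7%, 14.3%, 12.1% and 15.7% of all genes. Weights for single libraries gave 16 higher and 9 lower, beside 19.8% and 22.4% of all genes. The libraries of TRAP lay all above those of INPUT for 15 of the 63 genes and all below for 12 of the 63, beside 23.3% and 24.4% of all genes. Summed over the 64 genes, the level was 12000 to 14100 CPM in the TRAP libraries and 12500 to 15800 CPM in the INPUT libraries. What the data held was a spread within the group, which ran from a log2 fold change of 2.00 for Eif4g3 to -1.40 for Eef1b2.

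**Figure D1:**
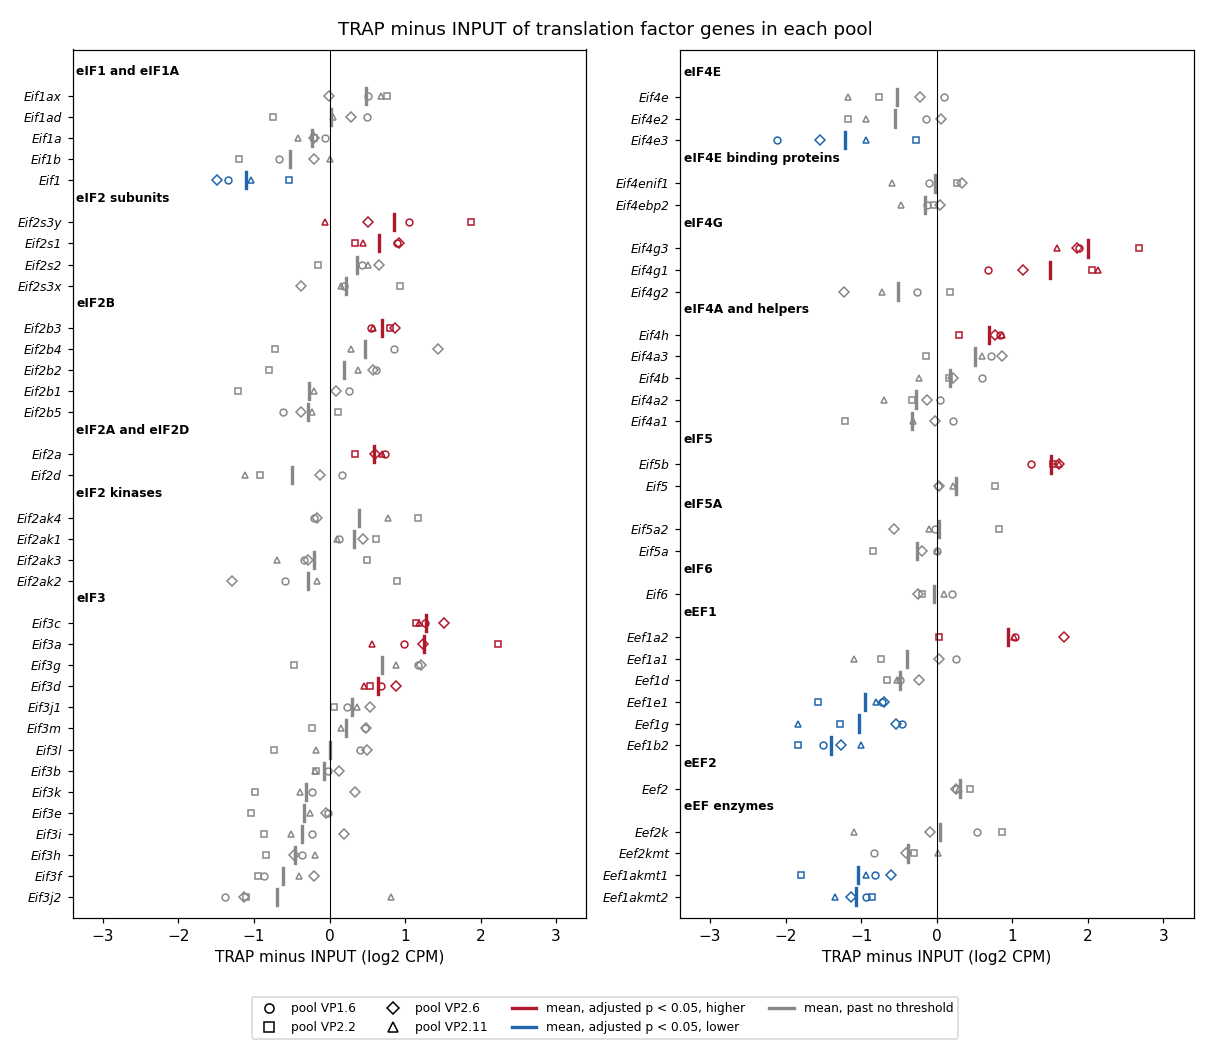
TRAP minus INPUT difference in log2 CPM (x axis) of the 63 genes tested, grouped by role (bold), with 1 open symbol a pool and a bar at the mean of 4 pools. Red and blue mark genes higher and lower in TRAP at an adjusted p under 0.05, and grey genes past no threshold. The 2 scaffolds Eif4g3 and Eif4g1, Eif5b, Eif3c and Eif3a sit farthest to the right, and Eef1b2, Eif4e3, Eif1 and 2 eEF1A methyltransferases farthest to the left among the genes called.

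The largest rise was in the eIF4G scaffolds, the proteins that tie the cap-binding protein to the helicase and, through eIF3, to the ribosome. Eif4g3, which encodes the scaffold eIF4GII (chr4:137993022-138208508), read 8.22, 8.14, 8.16 and 8.17 log2 CPM in TRAP and 6.34, 5.46, 6.30 and 6.58 in INPUT. The TRAP libraries differed among themselves by less than 0.10, and the lowest of them lay well above every INPUT library. The gene was 4.01-fold higher in TRAP (log2 2.00, SE 0.23, adjusted p = 3.6e-05). Eif4g1, which encodes the main scaffold eIF4GI (chr16:20668313-20692884), read 5.16, 5.57, 5.40 and 6.39 in TRAP and 4.48, 3.52, 4.26 and 4.25 in INPUT. Again no library of 1 fraction reached into the other, although VP2.11 stood highest in TRAP and VP2.2 lowest in INPUT. The rise of Eif4g1 was 2.83-fold (log2 1.5, SE 0.28, adjusted p = 0.0011).

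The third gene of the family did not follow. Eif4g2 (chr7:111067750-111083030), also known as DAP5, encodes a shorter relative that lacks the eIF4E binding site and serves initiation without it. Its levels were 8.54, 8.74, 8.08 and 8.26 log2 CPM in TRAP and 8.80, 8.55, 9.30 and 8.99 in INPUT, with VP2.2 higher in TRAP and the other pools lower. The difference of -0.51 (SE 0.25) did not pass the threshold (adjusted p = 0.14), but did so once the trend with exon length described below was taken out (log2 -0.90, adjusted p = 0.0049), with array weights and without VP2.2. Per kilobase of exon, Eif4g2 was the most abundant of the 3 genes in both fractions, at 33.8 ± 6.85 CPM per kb in TRAP and 48.2 ± 10.7 in INPUT. Eif4g3 stood at 26.1 ± 0.610 and 6.77 ± 1.98, and Eif4g1 at 7.16 ± 2.96 and 2.46 ± 0.631. The log2 ratio of Eif4g1 to Eif4g2 was -3.39, -3.17, -2.68 and -1.87 in TRAP and -4.32, -5.03, -5.05 and -4.74 in INPUT, a mean difference of 2.01 (SD over pools 0.83). The ratio was higher in TRAP in 4 of 4 pools, and the fractions did not overlap. An exact paired permutation test over pools gave the smallest p that 4 pools allow, which is above 0.05, and the exact unpaired permutation test of 4 against 4 libraries gave p = 0.0286 (two-sided, 0.114 after adjustment over 8 pairs of genes).

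**Figure D2:**
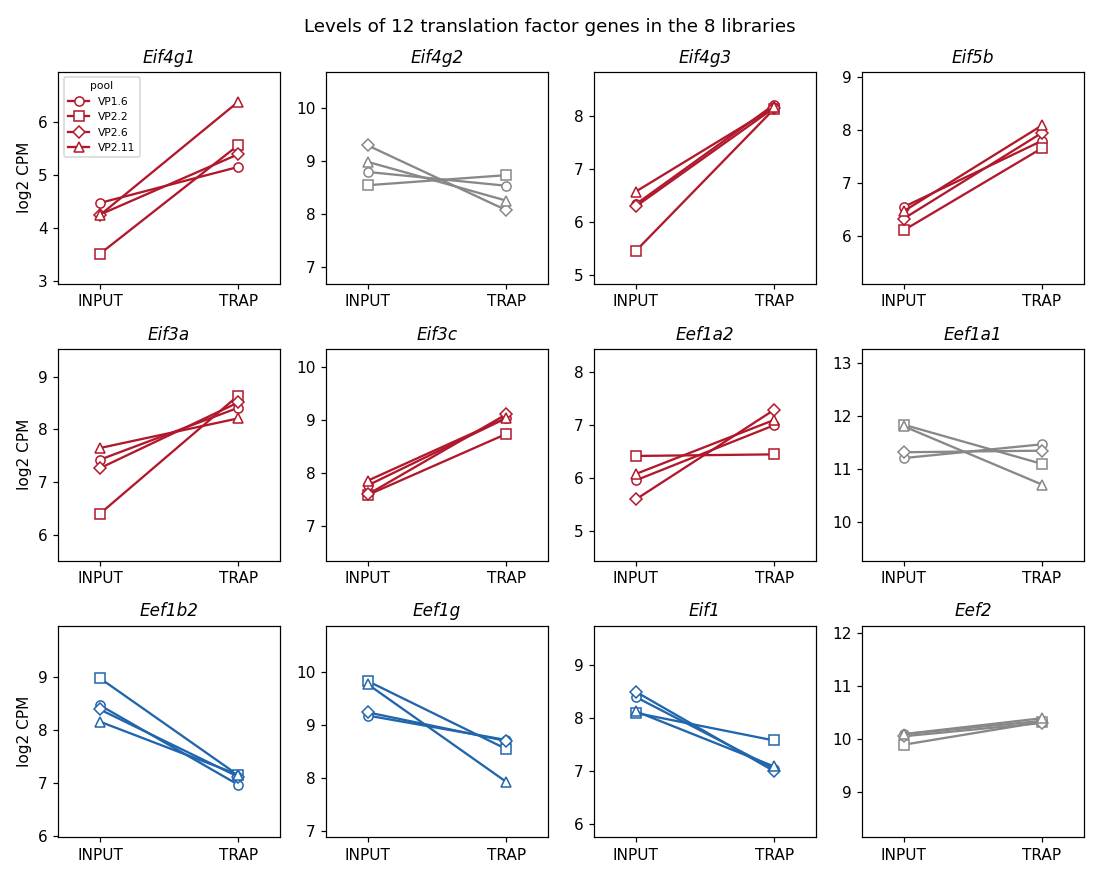
Level in log2 CPM (y axis) of 12 genes in the INPUT and TRAP libraries, with a line joining the 2 libraries of a pool. Each panel spans the same number of log2 units around its own centre. Red, blue and grey mark genes called higher, lower and neither. Lines rise in all 4 pools for Eif4g1, Eif4g3, Eif5b, Eif3a, Eif3c and Eef1a2, cross for Eif4g2 and Eef1a1, and fall in all 4 for Eef1b2, Eef1g and Eif1.

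Among the cap-binding proteins, only Eif4e3 passed the threshold with the block, as a fall. Eif4e, the canonical cap-binding factor, had a difference of -0.52 (SE 0.24, adjusted p = 0.12). For Eif4e2, a relative that represses translation, it was -0.55 (SE 0.25, adjusted p = 0.10). Each of these 2 genes was higher in TRAP in 1 pool and lower in 3, and its fractions overlapped. Both passed the threshold without the block (adjusted p = 0.043 and 0.046) and with the length trend taken out (adjusted p = 0.033 and 0.021). The ratio of Eif4e to Eif4e2 moved by 0.03 (SD over pools 0.34), and its fractions overlapped. Eif4e3, the least abundant of the family, fell in all 4 pools. Its levels were 1.19, 2.41, 1.37 and 1.73 log2 CPM in TRAP and 3.31, 2.69, 2.91 and 2.66 in INPUT, with VP2.2 the pool of the smallest gap (log2 -1.22, SE 0.39, adjusted p = 0.027). That call was lost when VP1.6 or VP2.6 was left out and when the length trend was taken out (log2 -0.99, adjusted p = 0.059). Of the exon bases of Eif4e3, 14.8% are shared with another annotated gene on the same strand. Eif4ebp2 and Eif4enif1, which encode an inhibitor and a nuclear carrier of eIF4E, had differences of -0.15 and -0.02 and passed no threshold.

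Of the helicase group, Eif4h, a helper of eIF4A, was higher in TRAP (log2 0.69, SE 0.21, adjusted p = 0.023). It read 8.35, 8.0, 8.28 and 8.41 log2 CPM in TRAP and 7.51, 7.70, 7.52 and 7.54 in INPUT, so that the fractions did not overlap and VP2.2 had the narrowest gap. The call was lost without VP1.6, VP2.6 or VP2.11. The helicases themselves were abundant and showed no call. Eif4a2, the form that prevails in brain, stood at 276 ± 27.7 CPM per kb in TRAP and 335 ± 40.8 in INPUT, and Eif4a1 at 41.3 ± 6.42 and 53.2 ± 16.7. The log2 ratio of Eif4a1 to Eif4a2 differed by -0.05 between the fractions (SD over pools 0.57, exact unpaired permutation p = 0.886), and it was lower in TRAP in 1 of 4 pools. Eif4a3, the helicase of the exon junction complex, had a difference of 0.51 (SE 0.23, adjusted p = 0.098), and passed the threshold without the block (adjusted p = 0.022), with array weights, with the length trend taken out and without VP2.2.

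At subunit joining, the rise was even across pools. Eif5b (chr1:37998010-38055579), the GTPase that joins the ribosomal subunits, read 7.79, 7.65, 7.94 and 8.08 log2 CPM in TRAP and 6.54, 6.10, 6.32 and 6.46 in INPUT. Every pool gained between 1.25 and 1.62, and the gene was 2.84-fold higher in TRAP (log2 1.51, SE 0.21, adjusted p = 0.00016). Rev1 covers 16.8% of its exon bases on the opposite strand, and the counting is not stated to use strand. Eif5, which makes eIF2 hydrolyse its GTP at the start codon, had a difference of 0.26 (SE 0.22, adjusted p = 0.38), and its fractions did not overlap. Eif5a, the translation factor that carries hypusine, stood at 94.6 ± 8.52 CPM per kb in TRAP and 114 ± 22.9 in INPUT, and its relative Eif5a2 at 7.59 ± 1.48 and 7.42 ± 1.45. Neither passed the threshold, nor did Eif6, which keeps free large subunits from joining (log2 -0.04, SE 0.22).

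The subunits of eIF3, the largest initiation complex, did not all pass the threshold. Of 14 genes, 3 were higher in TRAP and 0 lower, beside 15.4% and 16.8% of all genes, and the median log2 fold change was -0.04. Eif3c, a core subunit (chr7:126546455-126566411), read 9.03, 8.73, 9.10 and 9.03 log2 CPM in TRAP and 7.76, 7.58, 7.59 and 7.85 in INPUT. All TRAP libraries lay above all INPUT libraries, by 2.43-fold on average (log2 1.28, SE 0.21, adjusted p = 0.00056). Eif3a, which encodes the largest subunit (chr19:60761117-60790658), read 8.41, 8.64, 8.51 and 8.21 in TRAP and 7.43, 6.41, 7.27 and 7.65 in INPUT. Here too the fractions were apart, with the widest gap in VP2.2, whose INPUT value was the lowest (log2 1.25, SE 0.26, adjusted p = 0.0025). Eif3d, a subunit that can itself bind the cap of some mRNAs, was 1.56-fold higher (log2 0.64, SE 0.21, adjusted p = 0.029). Its call was lost without VP1.6, VP2.6 or VP2.11, and 43.3% of its exon bases are covered by a gene on the opposite strand.

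The remaining eIF3 genes spanned differences of -0.70 to 0.70. Eif3g, an RNA-binding subunit, stood at 7.86, 7.07, 7.84 and 7.77 log2 CPM in TRAP and 6.69, 7.54, 6.63 and 6.89 in INPUT. It was higher in TRAP in 3 pools and lower in VP2.2, with a difference of 0.70 (SE 0.27, adjusted p = 0.062 with the block and 0.032 without). Without VP2.2 the difference was 1.08 (adjusted p = 0.0013), with the length trend taken out 1.06 (adjusted p = 0.0019), and with array weights 0.99 (adjusted p = 0.00072). At the other end, Eif3f, a core subunit of the complex, read 5.00, 5.06, 5.35 and 5.17 in TRAP and 5.87, 6.00, 5.55 and 5.58 in INPUT. Its fractions did not overlap, and its difference of -0.61 (SE 0.23) did not pass the threshold with the block (adjusted p = 0.056), but did without it (0.0073) and with array weights (0.041). Eif3h had a difference of -0.46 (SE 0.22) and adjusted p values of 0.12 with the block and 0.017 without. Eif3e, Eif3i and Eif3k had differences between -0.36 and -0.31, Eif3b and Eif3l of -0.07 and 0.00, Eif3m of 0.22 and Eif3j1 of 0.30, and none of these passed the threshold in either fit. Eif3j2, an intronless near copy of Eif3j1 whose reads can be confused with it, was near the floor of detection at 1.90 ± 1.22 CPM in TRAP and 2.75 ± 0.482 in INPUT. In TRAP, levels per kilobase of exon ranged from 173 ± 8.48 CPM per kb for Eif3h and 144 ± 15.8 for Eif3c down to 3.04 ± 0.279 for Eif3j1 and 0.797 ± 0.515 for Eif3j2. In INPUT, Eif3c stood at 59.2 ± 5.51 CPM per kb, below Eif3h, Eif3k, Eif3i, Eif3m and Eif3g.

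The start codon selectors eIF1 and eIF1A hold the small subunit open while it scans. Of the 5 genes named for eIF1, 0 were higher and 1 lower, beside 15.4% and 16.8% of all genes. Eif1 (chr11:100319885-100322096) read 7.04, 7.57, 6.99 and 7.08 log2 CPM in TRAP and 8.39, 8.09, 8.49 and 8.12 in INPUT. Its fractions were apart in spite of a high TRAP value in VP2.2, and the level in TRAP was 2.15-fold lower (log2 -1.10, SE 0.23, adjusted p = 0.0023). Its relative Eif1b had a difference of -0.52 (SE 0.24), which passed the threshold only without the block (adjusted p = 0.10 with it, 0.035 without). The log2 ratio of Eif1 to Eif1b overlapped between the fractions, with a difference of -0.58 (SD over pools 0.87). The exact paired permutation test over pools gave p = 0.25. The exact unpaired permutation test gave p = 0.0857 (0.171 after adjustment over 8 pairs). Eif1a and the X-linked Eif1ax encode near-identical forms of eIF1A, so that their reads are only partly separable, and had differences of -0.23 and 0.48. Only Eif1ax passed in the fit without the block (adjusted p = 0.019).

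All subunits of eIF2, the carrier of the initiator tRNA, had positive mean differences, as did 6787 of all 14249 genes tested. Only Eif2s1 was higher in TRAP in every pool. Eif2s1, the alpha subunit that stress kinases phosphorylate, read 8.03, 7.67, 8.02 and 7.81 log2 CPM in TRAP and 7.14, 7.32, 7.09 and 7.37 in INPUT. The fractions did not overlap, and the rise was 1.57-fold (log2 0.65, SE 0.21, adjusted p = 0.032). The call was lost without VP1.6, VP2.6 or VP2.11. Eif2s2, the beta subunit, had a difference of 0.36 (SE 0.22, adjusted p = 0.23), and passed with array weights and without VP2.2. The gamma subunit is encoded by the X-linked Eif2s3x and by Eif2s3y on the Y chromosome, which only the male mice of a pool carry. Eif2s3y read 4.77, 4.99, 4.54 and 4.22 in TRAP and 3.72, 3.11, 4.03 and 4.28 in INPUT, so that it was higher in TRAP in 3 pools and slightly lower in VP2.11. It passed the threshold narrowly (log2 0.85, SE 0.31, adjusted p = 0.047), and lost the call when VP1.6, VP2.2 or VP2.6 was left out. Eif2s3x had a difference of 0.22 (SE 0.24, adjusted p = 0.51). The log2 ratio of Eif2s3x to Eif2s3y was 1.03 ± 0.29 in TRAP and 1.66 ± 0.28 in INPUT (SD, n = 4) and overlapped between them. The exact paired permutation test over pools gave p = 0.25. The exact unpaired permutation test gave p = 0.0571 (0.152 after adjustment over 8 pairs).

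Around eIF2 acts the exchange factor eIF2B, which recharges eIF2 with GTP and whose subunit genes are mutated in vanishing white matter disease. Of the 5 eIF2B genes, 1 was higher in TRAP, beside 15.4% of all genes. Eif2b3, for the gamma subunit of eIF2B, read 6.46, 6.46, 6.62 and 6.55 log2 CPM in TRAP and 5.91, 5.66, 5.75 and 5.97 in INPUT. Every pool showed a clear gap (log2 0.70, SE 0.21, adjusted p = 0.019). The call was lost without VP1.6 or VP2.6 and with the length trend taken out (log2 0.50, adjusted p = 0.053). The other eIF2B genes had differences from -0.28 to 0.47, of which Eif2b4 passed without VP2.2 (log2 0.86, adjusted p = 0.020) and with array weights, and Eif2b2 with the length trend taken out (adjusted p = 0.044). None of the 4 kinases that phosphorylate eIF2 (Eif2ak1 to Eif2ak4, known as HRI, PKR, PERK and GCN2) passed the threshold in either fit, with differences from -0.29 to 0.39. Eif2ak1 was the most abundant of them at 5.19 ± 0.382 CPM per kb in TRAP, and the other 3 lay between 0.668 and 1.02 CPM per kb. Eif2a, an alternative carrier of the initiator tRNA and not a subunit of eIF2, was higher (log2 0.59, SE 0.21, adjusted p = 0.041), but lost the call without VP1.6, VP2.6 or VP2.11. Eif2d, a factor of reinitiation, had a difference of -0.50 (SE 0.27, adjusted p = 0.16), and passed with the length trend taken out (adjusted p = 0.037).

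Of the 11 genes with an eEF name, 5 were lower and 1 was higher, beside 16.8% and 15.4% of all genes, and the median log2 fold change was -0.48. The 5 were the elongation factor subunits Eef1b2 and Eef1g, the scaffold gene Eef1e1 and a pair of methyltransferase genes. Eef1b2 (chr1:63176825-63180486), the exchange subunit that recharges eEF1A, read 6.96, 7.14, 7.11 and 7.15 log2 CPM in TRAP and 8.46, 8.97, 8.38 and 8.15 in INPUT. Every TRAP library was about 1 log2 unit or more below its INPUT, and the level was 2.64-fold lower (log2 -1.40, SE 0.22, adjusted p = 0.0004). Eef1g (chr19:8967041-8978479), the scaffold subunit, read 8.72, 8.55, 8.70 and 7.93 in TRAP and 9.18, 9.83, 9.24 and 9.77 in INPUT. The gap was widest in VP2.11 and VP2.2 (log2 -1.03, SE 0.26, adjusted p = 0.0084), and the call was lost without VP2.11. Eef1e1, which despite its name encodes a scaffold protein of the multisynthetase complex, was 1.93-fold lower (log2 -0.95, SE 0.22, adjusted p = 0.0052). Eef1d, the second exchange subunit, had a difference of -0.48 (SE 0.21) in 4 of 4 pools, which did not pass with the block (adjusted p = 0.093), but did without it (0.0081) and with the length trend taken out (log2 -0.68, adjusted p = 0.015).

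The tRNA carriers eEF1A1 and eEF1A2 were examined as a pair. Eef1a1 (chr9:78478449-78489151) was the most abundant gene of the group, at 929 ± 204 CPM per kb in TRAP and 1210 ± 271 in INPUT. Processed copies of Eef1a1 lie elsewhere in the genome, and reads that fit several places were not counted by the authors, so that its level may be understated. It read 11.46, 11.09, 11.34 and 10.70 log2 CPM in TRAP and 11.2, 11.83, 11.31 and 11.8 in INPUT. The fractions overlapped, with TRAP slightly higher in VP1.6 and VP2.6 and lower in VP2.2 and VP2.11, and the difference of -0.39 (SE 0.31) did not pass the threshold (adjusted p = 0.36, 95% interval -1.04 to 0.27). Eef1a2 (chr2:181147653-181157014) read 7.00, 6.45, 7.29 and 7.10 in TRAP and 5.96, 6.42, 5.60 and 6.08 in INPUT. It was higher in TRAP in 4 of 4 pools, by only 0.03 in VP2.2, and 1.92-fold on average (log2 0.94, SE 0.26, adjusted p = 0.012). The call was lost without VP2.6. The log2 ratio of Eef1a1 to Eef1a2 was 4.46, 4.64, 4.05 and 3.60 in TRAP and 5.24, 5.41, 5.71 and 5.72 in INPUT. It was lower in TRAP in every pool, by a mean of 1.33 log2 units that lay between 1.07 and 1.52 when a pool was left out, and the fractions did not overlap. The exact paired permutation p was again the smallest that the pools allow, and the exact unpaired permutation p was 0.0286 (0.114 after adjustment over 8 pairs). Per kilobase of exon, Eef1a1 made up 93.8% of the pair in TRAP and 97.5% in INPUT.

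**Figure D3:**
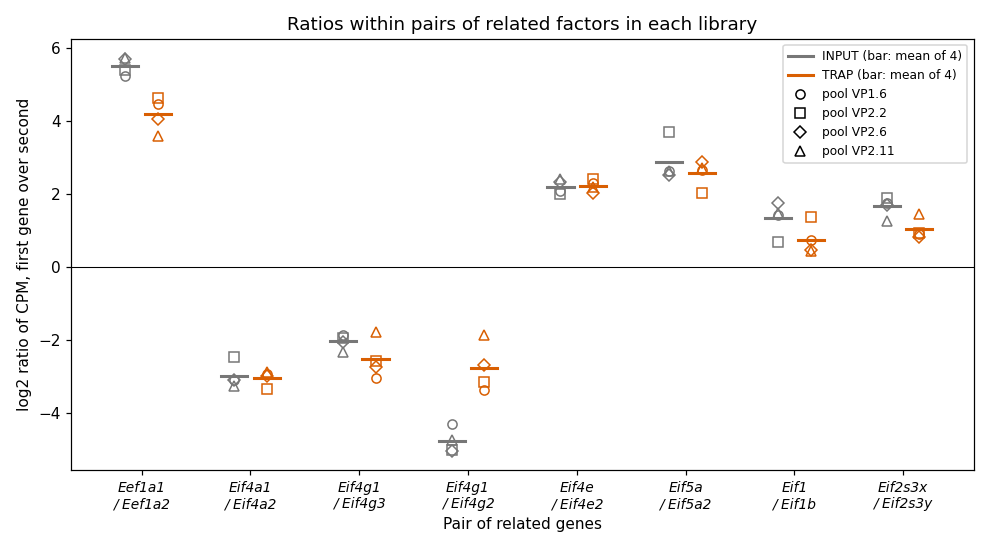
log2 ratio of CPM (y axis) within 8 pairs of related genes (x axis), in INPUT (grey) and TRAP (orange), with 1 symbol a pool and a bar at the mean of 4 libraries. The fractions do not overlap for Eef1a1 over Eef1a2, which is lower in TRAP, and for Eif4g1 over Eif4g2, which is higher in TRAP, and overlap for the other pairs.

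Eef2, the translocase, varied little between libraries. It read 10.35, 10.33, 10.31 and 10.40 log2 CPM in TRAP and 10.1, 9.90, 10.06 and 10.1 in INPUT, which kept the fractions apart by a small margin in every pool. The difference of 0.31 (SE 0.24) did not pass the threshold (adjusted p = 0.35 with the block and 0.069 without). Eef2k, the kinase that inhibits eEF2, was at 10.2 ± 3.65 CPM in TRAP and 9.42 ± 1.77 in INPUT. The methyltransferases Eef1akmt1 and Eef1akmt2, which modify lysines of eEF1A, were both lower in 4 of 4 pools (log2 -1.04, SE 0.24, adjusted p = 0.0042, and log2 -1.07, SE 0.22, adjusted p = 0.0023). The call of Eef1akmt1, the member with the shortest exons at 947 bases, was lost with the length trend taken out (log2 -0.33, adjusted p = 0.22). That of Eef1akmt2 was kept at every setting tried. Eef2kmt, which modifies eEF2, had a difference of -0.38 (SE 0.35).

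Many mRNAs of elongation factors and ribosomal proteins are known as TOP mRNAs, whose transcripts begin with a C followed by a run of pyrimidines that places them under control of mTOR and LARP1. A list of 9 factor genes known or taken as such was examined, among them Eef1a1, Eef1b2, Eef1d, Eef1g and Eef2. The list had 0 genes higher and 2 lower (Eef1b2 and Eef1g), beside 15.4% and 16.8% of all genes. Its median log2 fold change was -0.46. Start sites of RefSeq (GRCm38.p6) were available for 51 of the 64 genes. The search was for a C followed by at least 4 bases that were each C or T, read in the direction of transcription. It took matches starting within 5 bases of any annotated start of the gene and did not look at earlier bases. A run found can thus be the end of a longer one. Such a match was found for 14 of the 51 (27.5%), for 24.1% of 10451 genes in the table and for 18.3% of all RefSeq start windows. It was also found for 46.4% of 69 genes with symbols beginning with Rpl or Rps and a digit. That name rule is looser than the one for ribosomal protein genes below and can take in other genes, such as S6 kinases. The median log2 fold change was 0.01 over the 14 genes with such a run, with 2 higher and 0 lower, and 0.18 over 37 tested genes without one, with 9 higher and 4 lower, beside 15.4% higher and 16.8% lower of all genes. Below are the 10 bases before and 20 after the annotated start. They are given for Eef1a1, Eef1a2, Eef1b2 and Eef2, the elongation factors described above that have a RefSeq start. Eif3f, which has the longest run as marked by this search, and both genes of the eIF2 gamma subunit follow. Capitals mark the run.
Eef1a1 (chr9:78481705-78481734, minus strand): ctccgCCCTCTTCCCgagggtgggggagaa
Eef1a2 (chr2:181156996-181157025, minus strand): cctggtctgcgttctcgctcactggttctc
Eef1b2 (chr1:63176821-63176850, plus strand): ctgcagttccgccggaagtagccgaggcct
Eef2 (chr10:81176621-81176650, plus strand): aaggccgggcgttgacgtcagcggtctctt
Eif3f (chr7:108934405-108934434, plus strand): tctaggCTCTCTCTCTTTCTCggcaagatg
Eif2s3x (chrX:94212632-94212661, minus strand): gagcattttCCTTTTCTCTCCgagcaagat
Eif2s3y (chrY:1010585-1010614, plus strand): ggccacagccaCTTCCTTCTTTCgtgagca
The windows depend on where RefSeq places the start, and a window without capitals says only that these letters were not found there.

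Differences between TRAP and INPUT moved with the length of the gene. Over all genes tested, the log2 fold change had a Spearman correlation of 0.412 with merged exon length, and over the 63 translation factor genes 0.362. These are correlations across genes of the same libraries and carry no p. Eif4g3, Eif5b, Eif3a and Eif4g1 have exons of 11063, 9753, 8731 and 7301 bases, and Eef1b2, Eif4e3, Eif1 and Eef1g between 2098 and 2600. Eif3c (3511 bases) and Eef1a2 (2084 bases) rose with much shorter exons, and Eif4g2 (10166 bases) did not rise. With the trend taken out of each pool's difference, 13 genes were higher and 10 lower, where the same fit called 15.8% of all genes higher and 16.2% lower, and 15 of the 19 genes called before kept their call. Eif4g3, Eif5b, Eif4g1, Eif3a and Eif3c remained higher (log2 1.58, 1.14, 1.25, 0.92 and 1.38). Eef1b2, Eif1 and Eef1g remained lower (log2 -1.17, -0.77 and -0.82). The calls of Eif2a, Eif2b3, Eif4e3 and Eef1akmt1 were lost (log2 0.42, 0.50, -0.99 and -0.33, against 0.59, 0.70, -1.22 and -1.04 before).

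**Figure D4:**
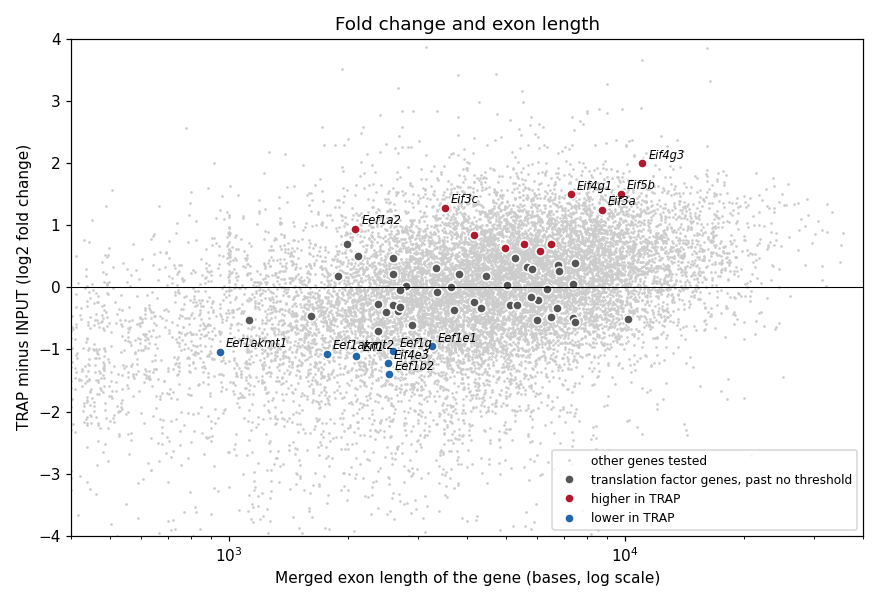
TRAP minus INPUT log2 fold change (y axis) against merged exon length in bases (x axis, log scale) for translation factor genes (large points) and the other genes tested (small grey points). Of all genes, 387 lie outside the plotted range, none of them a translation factor gene. Long Eif4g3, Eif5b, Eif3a and Eif4g1 lie high and all 7 called falls lie among genes of 3257 bases or fewer, while Eif3c and Eef1a2 lie high at short lengths.

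The other machinery of translation was examined from lists of genes that were chosen with earlier results of these data known, and each count stands beside the 15.4% higher and 16.8% lower of all genes. Of 21 genes for cytosolic aminoacyl-tRNA synthetases and their scaffold proteins, which charge tRNAs with amino acids, 12 were higher in TRAP and 0 lower, with a median log2 fold change of 0.67. Leaving out a pool gave 6 higher without VP1.6, 13 without VP2.2, 7 without VP2.6 and 11 without VP2.11, where 10.9%, 14.9%, 10.7% and 13.1% of all genes were higher. With the length trend taken out, 12 were higher and 1 lower, where 15.8% and 16.2% of all genes were called. Lars, the leucine enzyme, read 7.14, 7.02, 7.42 and 7.51 log2 CPM in TRAP and 5.72, 5.24, 5.37 and 5.74 in INPUT, and every pool showed the gap (log2 1.75, SE 0.21, adjusted p = 5.5e-05). Aars, the alanine enzyme, was 2.97-fold higher (log2 1.57, SE 0.21, adjusted p = 0.00013). By contrast the scaffold genes Aimp1 and Aimp2 had differences of -0.26 and -0.17, and Eprs, Kars and Qars of -0.09, -0.25 and -0.01. These did not pass the threshold in the fit that kept the length trend. Eef1e1, the scaffold gene of the same complex that carries an eEF name, was lower as given above.

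Termination and recycling factors had 2 of 9 genes higher and 0 lower, and 4 higher and 1 lower with the length trend taken out, where 15.8% and 16.2% of all genes were called. Abce1, which splits ribosomes after termination, was 2.24-fold higher (log2 1.16, SE 0.22, adjusted p = 0.0012), and Gspt2, 1 of the pair of genes for the release factor eRF3, was 2.39-fold higher (log2 1.26, SE 0.23, adjusted p = 0.00094). Its relative Gspt1 had a difference of 0.37 (SE 0.23, adjusted p = 0.24). Of 10 factors of mitochondrial translation, 3 were higher and 0 lower. They were Mtrf1l, a release factor (log2 1.29, SE 0.39, adjusted p = 0.021, a call lost without VP1.6 or VP2.2), Tufm, the mitochondrial counterpart of eEF1A (log2 1.17, SE 0.22, adjusted p = 0.0013), and Gfm1, the mitochondrial translocase (log2 1.15, SE 0.24, adjusted p = 0.0024).

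Among 12 genes for poly(A)-binding and cap-dependent regulators, 3 were higher and 0 lower, with a median of 0.07. Larp4, which stabilizes poly(A) tails, and Larp1, the repressor of TOP mRNAs, were 2.78-fold and 2.59-fold higher (log2 1.48, SE 0.23, adjusted p = 0.00041, and log2 1.37, SE 0.24, adjusted p = 0.00076). Cyfip1, an eIF4E-binding partner of FMRP, was higher by a log2 of 0.85 (SE 0.23, adjusted p = 0.012), a call kept without each pool in turn and lost with the length trend taken out (adjusted p = 0.12). Fmr1 itself had a difference of 0.10 (SE 0.26). Cytosolic ribosomal protein genes stood at the far end, with 0 of 76 higher, 53 lower and a median log2 fold change of -1.09. With the length trend taken out, 41 were lower, where 16.2% of all genes were, and the median was -0.68. Rpl22, whose protein carries the tag, was among the ribosomal protein genes that were lower (log2 -1.37, SE 0.23, adjusted p = 0.00053).

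**Figure D5:**
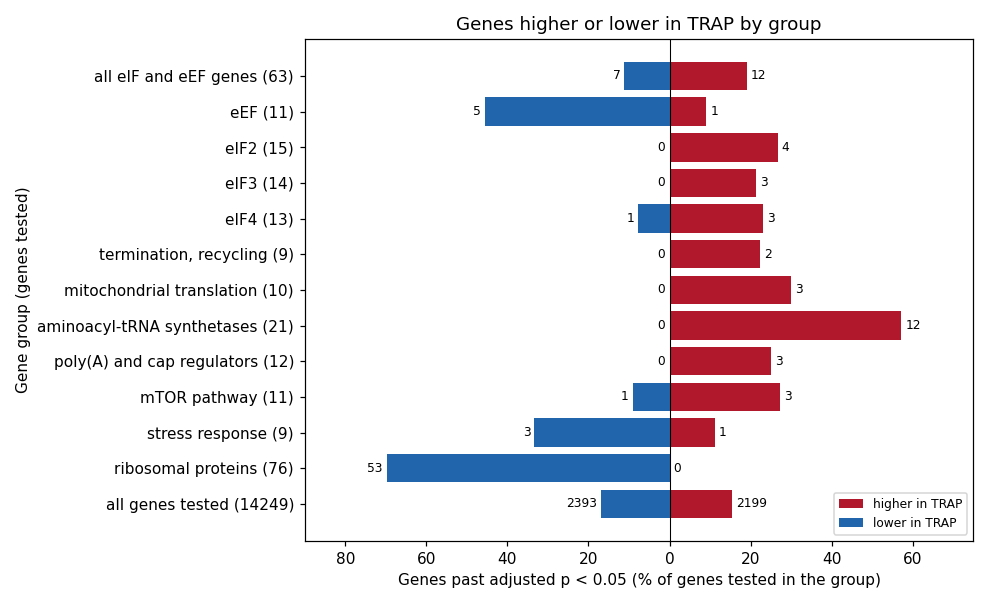
Percent of the genes tested in a group (x axis, away from 0 on both sides) that were higher (red, right) or lower (blue, left) in TRAP at an adjusted p under 0.05, with the count at the end of each bar and the number tested in brackets. The 63 translation factor genes (12 higher, 7 lower) resemble all 14249 genes in their shares, while synthetases reach 12 of 21 higher and ribosomal proteins 53 of 76 lower.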

How the data were processed

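RNA of 8 libraries (4 pools, TRAP and INPUT) was sequenced as single reads. The authors aligned reads with STAR 2.5.1a (a version the submitters' processing notes also name) to an Ensembl mouse assembly (GRCm38), counted uniquely aligned unambiguous reads with featureCounts, scaled libraries by TMM in edgeR and used limma with voom. The values the authors deposited are log2 CPM per gene and library, and 3 libraries are rounded to 3 significant digits. The deposited table also holds the authors' fold changes and p-values, which were not used. The 14398 entries include 45 repeats of a gene, which were dropped.

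The test, run on genes above 1 CPM in 3 or more libraries, used limma 3.58.1 (lmFit, eBayes with trend) in R 4.3.3, with the pool as a block and Benjamini-Hochberg adjustment over all 14249 genes (threshold 0.05). The study's methods name no block. Libraries of a pool come from 1 homogenate. Their deviations from the means of their fractions were opposed, with a mean correlation of -0.661 within pools. The value of 0.222 between pools is largely set by the one within pools, since deviations from a fraction's own mean cancel out. It is no separate evidence. Because of the opposed deviations, the fit without the block is given beside the other wherever it changes a call. Simulated data had opposed errors built in and 200 of 14249 genes changed, up or down, by about the size of the Eif4g1 rise or more. On these, blocking gave 121 true calls and 1 false call, and no blocking 170 and 107. Smaller changes, like those of most genes called here, were not simulated. Pools are the replicates, and nothing smaller was used. Whole reads were seen in within-pool differences of 98.1% (VP2.2) and 99.9% (VP2.6) of low genes. No count test was run, since counts of single libraries were not recovered.

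Exon lengths, positions and overlaps came from GENCODE release M21 (GRCm38), with all 64 genes matched by identifier. CPM per kb divides by merged exon length. The counting is not stated to use strand. Alternatives were the fit without the block, array weights, no filter, median centring, removal of a smooth trend on log exon length (lowess span 0.3), a minimum absolute log2 fold change of 0.5, and leaving out each pool.

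Genes named are both genes of 8 pairs of relatives, the 8 largest rises and falls past the threshold with 1 sign in all pools, the most abundant per kb in each role, the eIF3 subunits, and the extremes of each related list. Further names complete a family or name a call, and were chosen after their values were seen. The genes, lists and tests were chosen with earlier results of these data known. The set of ribosomal protein genes, the search for start-site runs, the overlap of exons and the counts of the related lists with a pool left out were added after the values were seen. The summed level of the oligodendrocyte markers is not reported here.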

Additional observations from a re-analysis of the deposited data

Results flagged for a closer look

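A library stood apart from the other 3 of its fraction in 8 of 92 groups of 4 examined (Dixon's criterion), where chance gives about 1 in 20, or 4.6. INPUT of VP2.2 was such a library 5 times. It was high for Eef1akmt1 (7.64 log2 CPM, others 6.83 to 6.93), Eef1e1 (7.85, others 7.16 to 7.21), Eif3e (8.46, others 7.78 to 7.88) and Eif4h (7.70, others 7.51 to 7.54), and low for Eif5 (6.79, others 7.21 to 7.29). TRAP of VP2.2 was high for Eif1 (7.57, others 6.99 to 7.08) and low for Eif3g (7.07, others 7.77 to 7.86). TRAP of VP2.11 was high for Eif3j2 (1.90, others 0.32 to 0.42), a gene near the floor of detection. Without VP2.2, the falls of Eef1akmt1, Eef1e1 and Eif1 and the rise of Eif4h remained past the threshold.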

How the results depend on the processing

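Without the pool as a block, 3300 genes were higher and 3530 lower over all genes tested, against 2199 and 2393 with it, and 13 translation factor genes were lower against 7. Leaving out a pool gave 5 to 15 translation factor genes higher against 12, where 10.7% to 14.9% of all genes were higher, fewer libraries being tested each time. Of the 19 genes called, 9 kept their call in all fits run: Eif4g3, Eif5b, Eif4g1, Eif3a, Eif3c, Eef1b2, Eif1, Eef1e1 and Eef1akmt2. Array weights gave 16 higher and 9 lower, beside 19.8% and 22.4% of all genes, and kept all 19. No filter and median centring changed no call among 46 named genes, and no value of theirs changed sign past the threshold. For the 8 ratios of related genes the paired test cannot reach 0.05 with 4 pools, and the smallest p of the unpaired one is 0.0286. Depth is known for 2 pools, and genes near 1 CPM, such as Eif3j2 and Eif4ebp1, carry few reads.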

Other observations

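Regulators upstream of the factors gave mixed counts. Of 11 genes of the mTOR pathway, which governs cap-dependent initiation, 3 were higher in TRAP and 1 lower, beside 15.4% and 16.8% of all genes. Deptor, an inhibitor of mTOR, was 3.33-fold higher (log2 1.74, SE 0.27, adjusted p = 0.00037), and read 6.80, 6.59, 6.45 and 6.27 log2 CPM in TRAP and 4.69, 4.08, 4.95 and 5.45 in INPUT. Rictor and Rptor, the defining subunits of the 2 mTOR complexes, were higher by log2 values of 1.14 (SE 0.27, adjusted p = 0.0048) and 0.68 (SE 0.25, adjusted p = 0.048). Rptor did not pass with the length trend taken out (adjusted p = 0.53) or with any of the 4 pools left out. Mtor itself had a difference of 0.04 (SE 0.22). Rps6kb2, a kinase of ribosomal protein S6, was lower at 2.55 ± 1.19 CPM in TRAP and 6.33 ± 2.09 in INPUT, a call lost without VP1.6 or VP2.6.

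Of 9 genes tested of the integrated stress response, which acts through phosphorylation of eIF2, 3 were lower in TRAP and 1 higher, beside 16.8% and 15.4% of all genes. Nupr1, a stress-induced chromatin protein, averaged 3.15 ± 1.28 CPM in TRAP and 36.8 ± 8.14 in INPUT (log2 -3.64, SE 0.30, adjusted p = 2e-06). Ddit3, which encodes CHOP, averaged 22.2 ± 3.05 against 61.6 ± 12.6 CPM. Asns, the asparagine synthetase, was higher, at 619 ± 73.6 against 317 ± 36.2 CPM, and Atf4, the central transcription factor of the response, had a difference of -0.39 (SE 0.22, adjusted p = 0.20). Ppp1r15a, a phosphatase subunit that reverses eIF2 phosphorylation, was lower with overlapping fractions (log2 -0.96, SE 0.35, adjusted p = 0.049), a call lost without VP1.6, VP2.6 or VP2.11.

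Dhps and Dohh, the enzymes that make hypusine on eIF5A, passed no threshold in the fit with the block. Secisbp2, which helps to decode selenocysteine, was higher in TRAP by a log2 of 1.23 (SE 0.26, adjusted p = 0.0027), and Eefsec, the elongation factor for that amino acid, had a difference of 0.35 (SE 0.32).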
